A study of Mus musculus with 10 samples.

Results

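The regions described here are the OTX2 peaks of mouse epiblast stem cells (EpiSCs) that had no counterpart in the definitive endoderm (DE) made from them. They are called EpiSC-only peaks below. They were selected on the peak lists themselves: an interval of the EpiSC list was taken when no interval of the DE list overlapped it by 1 bp or more, when it lay on chromosomes 1 to 19 or X, and when it overlapped no peak of 3 control IgG lists from EpiSCs. Of the 6319 EpiSC peaks, 17 on chromosome Y or the mitochondrial chromosome and 41 that overlapped an IgG peak were set aside. Of the remaining 6261, 1306 (20.9%; 95% Wilson interval 19.9 to 21.9%) had no DE peak and 4955 did. The latter are called shared peaks. Against the widest DE peaks alone, as many as the EpiSC list has, 4322 (69.0%) had none, so the share depends on the length of the DE list. The 20.9% is what the rule returned and serves below only as the level against which other shares are read.

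Peaks came from CUT&RUN, in which a nuclease guided by an antibody cuts out the DNA around the target protein for sequencing. The antibody was against the HA epitope on OTX2. Tagged cells were of line 7H OTX2-dTAG-EGFP, by its name one with a degradation tag and EGFP, on a BL6/129 hybrid background, and each sample held 500000 cells. The 2 HA and 3 IgG samples of EpiSCs were grown in N2B27 medium with FGF2 (12.5 ng/ml), Activin A (20 ng/ml) and NVP (175 nM). The 2 HA samples of tagged DE were made in CDM, first for 16 h with CHIR (3 uM) and Activin A (40 ng/ml), then for 24 h with LDN (100 nM) and Activin A (100 ng/ml), followed by a sort of live cells. An untagged parental line, 5.8, gave 1 HA sample of DE by the same steps, with 14 peaks. No degrader treatment is named for any of these samples, each cell state comes from 1 tagged line, and no expression values were among the data used, so neither state was checked against its markers here.

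OTX2 is a homeodomain transcription factor of the bicoid type, whose preferred DNA core is TAATCC. It is expressed in the epiblast as cells leave naive pluripotency, where it is known to act together with OCT4 (Pou5f1), and again in anterior mesendoderm and anterior neural tissue. EpiSCs are a culture model of the primed epiblast, and definitive endoderm is the germ layer that gives rise to the gut and its organs.

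The 2 HA replicates of each state stand in 1 list, without heights or scores, so no value below has a replicate spread. Read depth was unknown. Intervals given with shares take in counting error alone, and peaks that lie close together are not independent. The DE list was 6.76 times as long as the EpiSC list, with 42711 peaks. Absence from it means that no DE peak was listed there: binding that ended and binding below the calling threshold cannot be told apart. None of the 1306 peaks overlapped a parental HA peak, and 2 lay within 1 kb of one of the 343 distinct IgG intervals on the same chromosomes.

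Sequences are shown for EpiSC-only peaks at gene starts, the places for which sequence was at hand: the part of the peak inside the RefSeq promoter window (250 bases before to 50 after a start, GRCm38.p6), on the strand of the gene and cut off 25 bases past the start. Capitals mark TAATCC, the POU octamer ATGCAAAT bound by OCT4 and its relatives, the NFY core CCAAT, the SOX core ACAATG or the B box of tRNA genes, each on either strand. The first set is shown because 3 of these peaks lie at starts of H3 histone genes, each with 2 or more CCAAT cores.

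H3c10, chr13:21717485-21717652, plus strand: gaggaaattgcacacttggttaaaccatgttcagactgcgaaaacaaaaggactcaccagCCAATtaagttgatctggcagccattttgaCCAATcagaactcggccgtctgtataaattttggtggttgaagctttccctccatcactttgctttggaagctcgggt
H3c4, chr13:23575609-23575787, plus strand: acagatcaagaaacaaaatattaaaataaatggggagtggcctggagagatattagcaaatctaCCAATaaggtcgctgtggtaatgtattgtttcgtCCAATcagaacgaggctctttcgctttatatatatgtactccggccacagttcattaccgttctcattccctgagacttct
H3c3, chr13:23745572-23745694, minus strand: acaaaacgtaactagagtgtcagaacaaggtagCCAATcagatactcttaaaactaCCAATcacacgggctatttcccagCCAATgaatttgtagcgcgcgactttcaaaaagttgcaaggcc

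The second set holds the octamer and gives 3 of the 4 such peaks. H2bc14, an H2B gene, carries it beside 3 CCAAT cores, Slc35a2 encodes a UDP-galactose transporter, and Pipox encodes pipecolic acid oxidase.

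H2bc14, chr13:21721879-21722068, plus strand: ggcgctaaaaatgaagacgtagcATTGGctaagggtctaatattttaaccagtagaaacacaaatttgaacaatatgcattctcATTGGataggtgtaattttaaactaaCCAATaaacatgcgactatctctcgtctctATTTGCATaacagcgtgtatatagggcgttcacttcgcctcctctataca
Slc35a2, chrX:7883994-7884110, plus strand: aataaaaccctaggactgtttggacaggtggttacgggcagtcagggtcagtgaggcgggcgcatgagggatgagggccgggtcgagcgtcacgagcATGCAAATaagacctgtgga
Pipox, chr11:77893848-77894122, minus strand: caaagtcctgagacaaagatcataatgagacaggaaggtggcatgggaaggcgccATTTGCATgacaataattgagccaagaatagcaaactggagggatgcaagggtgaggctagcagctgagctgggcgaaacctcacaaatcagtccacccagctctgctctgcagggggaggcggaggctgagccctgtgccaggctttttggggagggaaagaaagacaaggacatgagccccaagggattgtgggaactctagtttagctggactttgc

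The third set holds the OTX2-type core: the H4 gene H4f16, Cdiptos and the long non-coding RNA gene Gm11729. All 3 carry it as its reverse complement, GGATTA, when read on the gene's strand.

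H4f16, chr6:136804407-136804568, minus strand: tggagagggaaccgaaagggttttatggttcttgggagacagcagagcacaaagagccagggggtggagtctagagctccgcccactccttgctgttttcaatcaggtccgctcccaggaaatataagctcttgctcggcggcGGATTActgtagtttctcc
Cdiptos, chr7:126975967-126976096, minus strand: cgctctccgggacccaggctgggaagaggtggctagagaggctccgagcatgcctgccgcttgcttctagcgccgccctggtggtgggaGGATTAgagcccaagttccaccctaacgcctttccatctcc
Gm11729, chr11:117414139-117414267, plus strand: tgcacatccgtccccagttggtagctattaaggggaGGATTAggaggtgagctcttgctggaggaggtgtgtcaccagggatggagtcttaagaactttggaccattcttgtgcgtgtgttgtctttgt

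The last pair shows a peak at a gene of the primed epiblast, Lin28a, and a peak in the tRNA gene n-TRtcg5 that reaches into the promoter window of Polg, the mitochondrial DNA polymerase. The capitals in the second are the tRNA B box on the opposite strand.

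Lin28a, chr4:134018862-134019066, minus strand: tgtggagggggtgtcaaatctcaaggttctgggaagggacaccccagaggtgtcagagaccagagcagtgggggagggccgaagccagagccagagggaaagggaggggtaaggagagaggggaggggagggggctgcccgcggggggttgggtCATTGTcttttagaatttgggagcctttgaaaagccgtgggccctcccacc
Polg, chr7:79466448-79466523, minus strand: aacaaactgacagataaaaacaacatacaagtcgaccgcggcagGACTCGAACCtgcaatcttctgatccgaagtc

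EpiSC-only peaks were mostly narrow. Their median width was 125 bp (quartiles 93 and 173 bp), against 147 bp (105 and 211 bp) for shared peaks. Peaks under 100 bp made up 31.3% of EpiSC-only peaks (409 of 1306) and 20.7% of shared peaks (1027 of 4955). The share of EpiSC peaks without a DE peak fell with width, from 28.5% below 100 bp (26.2 to 30.9%) over 17.9% from 150 bp to under 250 bp to 12.2% at 400 bp or more (8.47 to 17.3%). A wider interval also has more bases with which to meet a DE peak, and what part this has in the trend was not tested. The trend did not extend to the top of the list: 5 of the 10 widest EpiSC peaks had no DE peak, the widest of all at 1537 bp, while the widest shared peak measured 923 bp.

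**Figure D1:**
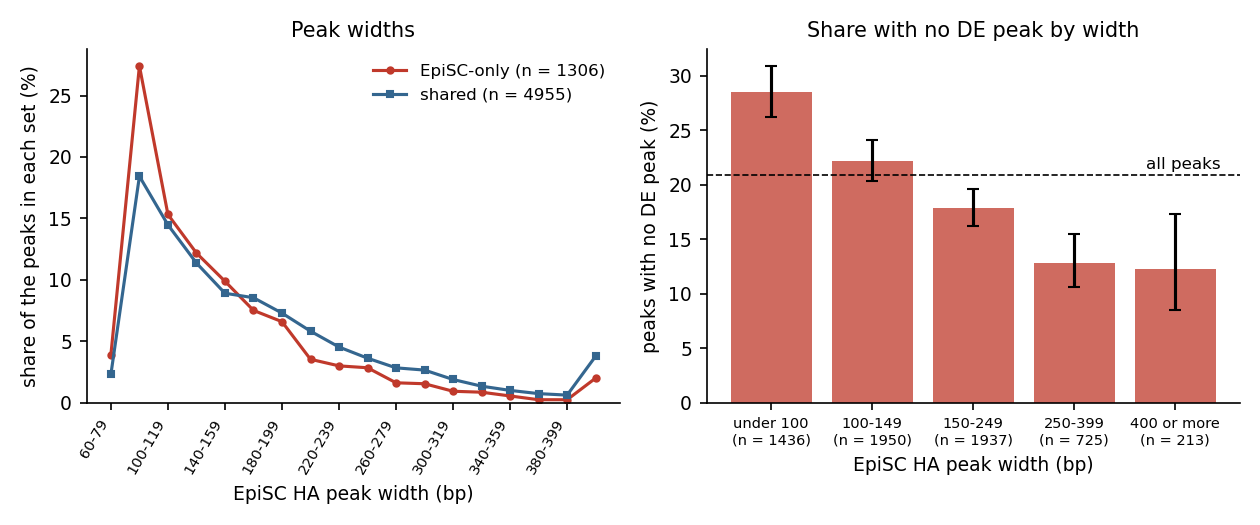
Left, the share of EpiSC-only and of shared peaks in each width class (bp); right, the percentage of EpiSC HA peaks without a DE peak by width, with 95% Wilson intervals and the level of all peaks dashed. The percentage goes from 28.5% under 100 bp to 12.2% at 400 bp or more.

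Most EpiSC-only peaks lay away from the starts of genes. The peak centre was within 1 kb of a transcript start in 148 of 1306 EpiSC-only peaks (11.3%) and in 1960 of 4955 shared peaks (39.6%), a difference of -28.2 points (95% Newcombe interval -30.3 to -25.9). Only 7.02% of EpiSC peaks near a start were EpiSC-only, against 20.9% of all. For either end of any annotated gene the shares were 22.0% (287 peaks) and 45.8% (2269 peaks), a difference of -23.8 points (-26.4 to -21.1), and for protein-coding genes alone 11.4% and 40.7%, a difference of -29.3 points (-31.5 to -27.1). Of the whole DE list, 16.2% were within 1 kb of a transcript start, 21.3% of any gene end and 16.7% of a protein-coding one. In these 3 shares the EpiSC-only peaks were nearer to the DE list than to the shared peaks. The body of a protein-coding gene was overlapped by 532 EpiSC-only peaks (40.7%) and 2549 shared peaks (51.4%). Here the DE list, with 51.35%, was nearer to the shared peaks. In no protein-coding or long non-coding RNA gene lay 662 EpiSC-only peaks (50.7%; 40.9% of shared peaks), and 133 were farther than 50 kb from any gene end (10.2%; 6.78%). For overlap with a long non-coding RNA gene the interval of the difference included 0, with 11.8% and 11.2% (difference 0.591 points, -1.28 to 2.64). Transcript starts and 3′ ends need the strand of a gene, which was at hand for 27025 of 34631 protein-coding and long non-coding RNA genes and for none on chromosome 18, where 31 EpiSC-only peaks lie.

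The class with the highest EpiSC-only share of those examined was the tRNA genes, short genes that RNA polymerase III transcribes from promoter boxes inside the gene. Of the 21 EpiSC peaks that overlapped a tRNA gene, 17 had no DE peak (81.0%, 60 to 92.3%). These made up 1.30% of EpiSC-only and 0.0807% of shared peaks, a difference of 1.22 points (0.717 to 1.996). The whole DE list of 42711 peaks held 4 peaks in tRNA genes. Within 1 kb of a tRNA gene lay 43 EpiSC-only and 24 shared peaks (64.2% EpiSC-only, 52.2 to 74.6%), as well as 56 DE peaks. The IgG lists had no peak within 1 kb of a tRNA gene, but they hold only 343 distinct intervals. The class took in 1.07% of EpiSC peaks and 0.131% of DE peaks, so a list this short says little about it.

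By position, the first 5 peaks in tRNA genes were in n-TSgct7 on chromosome 2 (119046656 to 119046786), n-TQctg4 and n-TKctt15 on chromosome 3 (96399002 to 96399099 and 96428273 to 96428473), n-TRtcg5 on chromosome 7 (79466448 to 79466648), and on chromosome 11 a peak of 414 bp across n-TTagt7 and n-TSgct3 (69062683 to 69063096). The letter in such a name gives the amino acid and the last 3 letters the anticodon, so these 6 genes are of serine, glutamine, lysine, arginine and threonine tRNAs. Their distances to the nearest DE peak were 11752, 14634, 12255, 1536 and 2889 bp. Each of the 5 had no DE peak within 1 kb. Over all 43 peaks within 1 kb of a tRNA gene the median distance was 5828 bp, compared with 9392 bp over all 1306, and 6 had a DE peak within 1 kb (13.95%, compared with 15.1% of all). The tRNA genes with an EpiSC-only peak within 1 kb numbered 69 of 408, those with a DE peak 60 and those with a shared EpiSC peak 29. Both an EpiSC-only and a DE peak lay within 1 kb of 9 tRNA genes.

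Of the 43 peaks, 18 were on chromosome 13, which also had the highest EpiSC-only share of any chromosome, 88 of 293 peaks (30.03%, 25.1 to 35.5%). The next were chromosome 16 with 27.9% and chromosome 4 with 23.7%, and the lowest was chromosome 8 with 13.7% (10.4 to 17.9%). On chromosome 13 the interval from 21 to 24 Mb, chosen after these values were seen, holds 104 tRNA genes and a large cluster of replication-dependent histone genes. There 36 of 81 EpiSC peaks had no DE peak (44.4%, 34.1 to 55.3%), compared with 52 of 212 on the rest of the chromosome (24.5%). All 18 tRNA-associated peaks of the chromosome were in this interval, against 5 shared peaks near tRNA genes. The DE list had 96 peaks in the same interval and the IgG lists none.

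At histone genes the split was closer to that of all peaks. Replication-dependent histone genes encode the histones made during DNA replication, and their messages end in a stem-loop rather than a poly(A) tail. Within 1 kb of one lay 16 EpiSC-only and 36 shared peaks, 30.8% EpiSC-only (19.9 to 44.3%), an interval that includes 20.9%. The H3 gene H3c3 was the nearest gene of 3 EpiSC-only peaks and of no shared or DE peak: one before its start, printed above, and others of 277 and 97 bp at 492 and 836 bp past its 3′ end. H4c9, an H4 gene, had the widest of the group, 535 bp, 276 bp past its 3′ end and 271 bp from a DE peak.

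**Figure D2:**
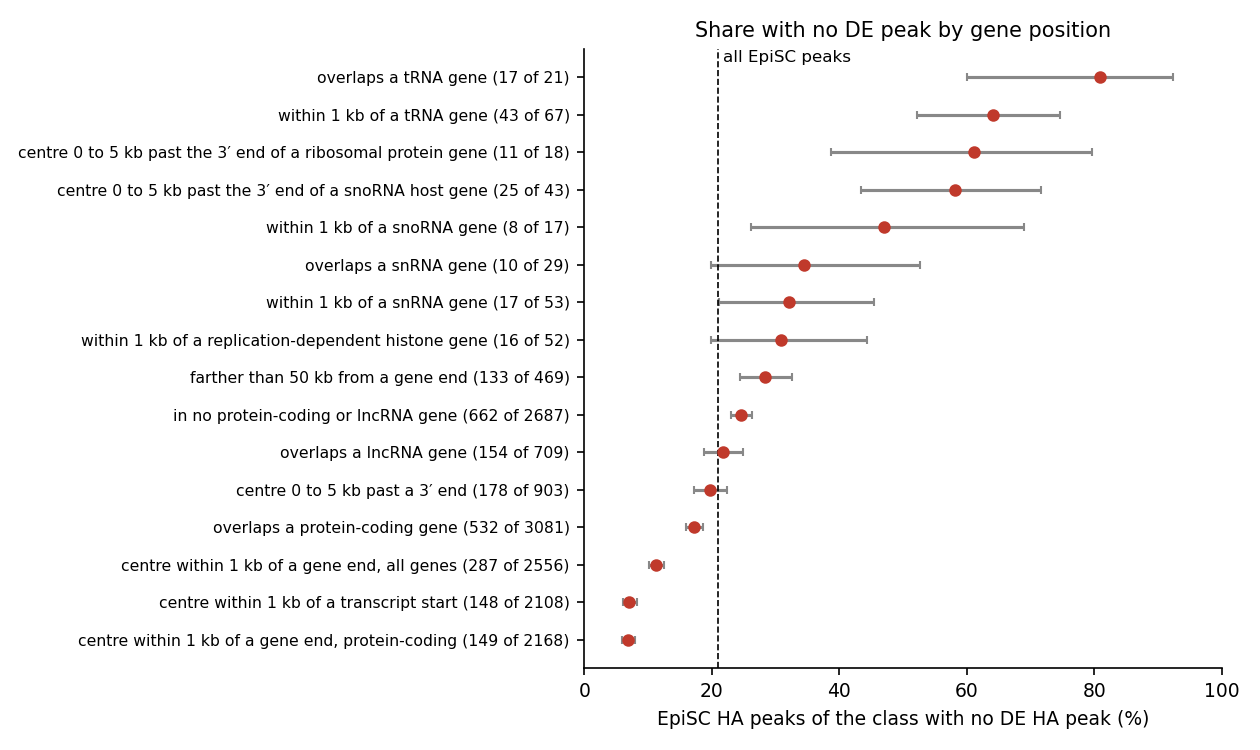
For each class of gene position, the percentage of the EpiSC HA peaks of that class that had no DE peak (points, with 95% Wilson intervals); the number of EpiSC-only peaks and of all EpiSC peaks stands in brackets, and the dashed line is the level of all EpiSC peaks. tRNA genes reach 81.0%, while transcript starts are at 7.02%.

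A second group lay just past the 3′ ends of genes that host small nucleolar RNAs (snoRNAs), guides for the chemical modification of ribosomal and other RNAs that are mostly cut from introns of a host transcript. Host genes were the 384 genes that hold one of 1340 RefSeq snoRNA genes; this class was added after earlier values had been seen. The centre was 0 to 5 kb past the 3′ end of a host in 25 EpiSC-only peaks (1.91%) and 18 shared peaks (0.363%), a difference of 1.55 points. The EpiSC-only peaks were thus 58.1% of the class (43.3 to 71.6%). Past 3′ ends in general the shares were alike in size, 13.6% and 14.6% (difference -1.002, -3.03 to 1.19). Ribosomal protein genes, 65 in the table and in part hosts themselves, had 11 EpiSC-only and 7 shared peaks in the same window (61.1%, 38.6 to 79.7%). Of the DE list 66 peaks (0.155%) were past a host 3′ end. The IgG lists had 3 of their 343 intervals there (0.875%), all at Mid1, where no EpiSC peak outside the IgG lists lay in that window.

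In all, 30 EpiSC-only peaks at 18 host or ribosomal protein genes made up this group, and 17 of the 18 genes had no shared peak in the window. Over all nearest genes of EpiSC-only peaks, 839 of 1169 (71.8%) had no shared peak, so much of such a count follows from the selection. At 12 of the 18 no DE peak was centred in it either, which leaves DE peaks elsewhere near the gene uncounted. Of these 12, Gas5, Rps12 and Snhg3 had their widest EpiSC-only peak 4211, 3364 and 41522 bp from a DE peak. The rule itself leaves out overlap with a DE peak. Of all 1306 peaks only 489 (37.4%) had a DE peak within 5 kb on either side. That distance is taken from the peak and not from the gene end, so the 2 counts are unlike. The non-coding host genes were Gas5, Zfas1, Snhg1, Snhg3, Snhg5, Snhg12, Snhg15, 1110038B12Rik, 2410006H16Rik and Rab26os. Rpl13a, Rps12 and Rps2 are ribosomal protein genes that are also hosts, Rps9, Rps18, Rps19 and Rpl24 encode other ribosomal proteins, and Eif4a2, an RNA helicase of translation initiation, is a host as well. Rpl13a and Zfas1 had 3 such peaks each, and 8 genes had 2. The exception with a shared peak was Rps2, with 1 of each kind. Shared peaks without an EpiSC-only one stood past other genes of the same kind, such as Rpl4 (2 peaks, the wider of 643 bp), Eif4a1, Eef2 and Atp5b.

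The peak at Gas5, a non-coding RNA gene whose introns carry many snoRNAs, was the widest of all EpiSC-only peaks. It covered 1537 bp on chromosome 1 (161039311 to 161040847), with its centre 1539 bp past the 3′ end of Gas5 (161034601 to 161038539, plus strand). The nearest DE peak was 4211 bp away. A narrow peak of 94 bp, centred 541 bp past the same end, was also EpiSC-only. At Rps12, which encodes a protein of the small ribosomal subunit, a peak of 875 bp was centred 1739 bp past the 3′ end (chromosome 10, 23783007 to 23783881), 3364 bp from a DE peak. At Rps9 a peak of 804 bp was centred 1112 bp past the end (chromosome 7, 3707608 to 3708411), and here a DE peak was 455 bp away. At Snhg3 the peak of 789 bp (chromosome 4, 132350224 to 132351012) was 41522 bp from any DE peak. These 4 peaks were all in the flank downstream of the transcript and not over the gene itself.

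**Figure D3:**
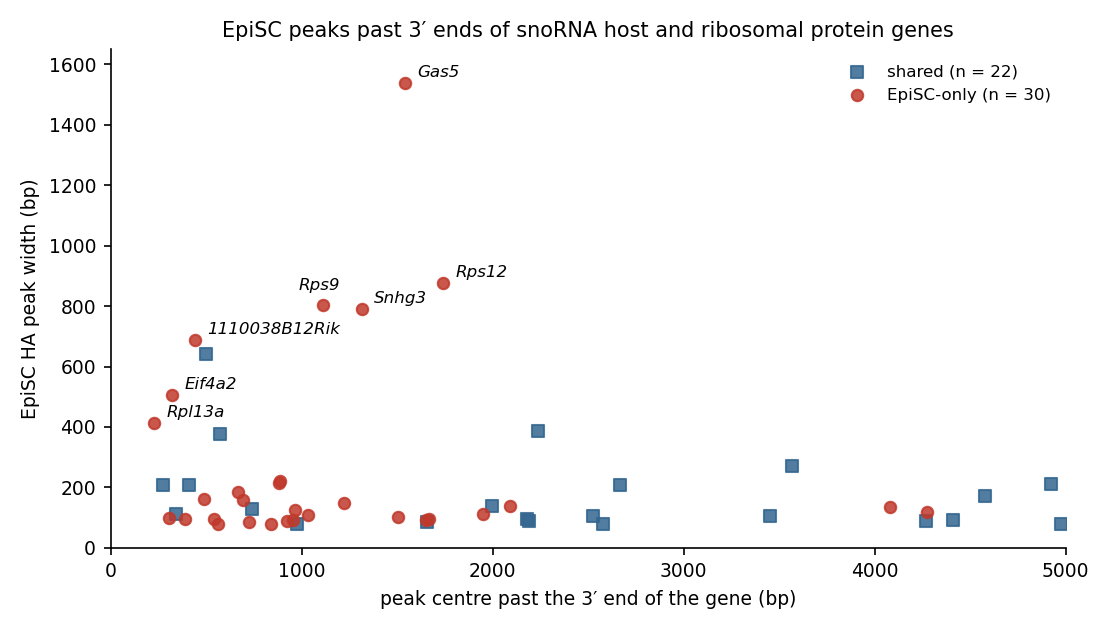
EpiSC HA peaks centred 0 to 5000 bp past the 3′ end of a snoRNA host or ribosomal protein gene: distance past the end (x axis, bp) against peak width (y axis, bp), with EpiSC-only peaks as circles and shared peaks as squares. The 7 labelled EpiSC-only peaks are 412 to 1537 bp wide, and all EpiSC-only peaks but those at 4078 bp (Rps12) and 4273 bp (2410006H16Rik) lie no farther than 2088 bp from the end.

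The widest peaks overlap with the group just described. Of the 26 EpiSC-only peaks of 400 bp or more, a width limit set after the values were seen, 13 were 0 to 5 kb past a 3′ end, compared with 37 of 187 shared peaks of that width (19.8%). The difference of 30.2 points was 7.18 points with the limit at 300 bp and 63.1 points at 500 bp, so its size depends on the limit. Of the 13, the 7 labelled in the plot of 3′ ends were already counted at host and ribosomal protein genes, so this is no separate observation. The 10 widest included a pair of 642 and 630 bp past the 3′ end of Actg1, the cytoplasmic gamma-actin gene, at 819 and 36 bp from a DE peak, and the peak of 688 bp at 1110038B12Rik, the host of Snord52. The others were the peak at H4c9, a peak of 698 bp over the snRNA gene Gm22265 within Hhat, and one of 788 bp outside annotated genes (chromosome 6, 39445790 to 39446577). Counting 3′ ends together with snRNA and tRNA genes within 1 kb covered 17 of the 26 (65.4%) and 56 of the 187 shared peaks of that width (29.9%), a class also formed after the values were seen.

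Eef1a1, the translation elongation factor, showed the pattern with 3 peaks in a row, of 326, 489 and 214 bp, centred 873, 1446 and 1905 bp past its 3′ end on chromosome 9. The deposited table gives Gm26377 as their nearest gene, and no shared or DE peak had that gene as nearest. Peaks near snRNA genes, which encode the RNAs of the spliceosome, and U3 genes counted with them, split less unevenly. Of the 53 within 1 kb of one, 17 were EpiSC-only (32.1%, 21.1 to 45.5%). At Gm23444 on chromosome 11, 3 EpiSC-only peaks of 283, 199 and 124 bp followed each other, with the nearest DE peak more than 19 kb away.

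Genes of the primed epiblast and of pluripotency had the most EpiSC-only peaks by number among 8 gene lists, and also the most EpiSC peaks. Of the 41 EpiSC peaks with a gene of this list as nearest gene, 13 were EpiSC-only (31.7%, 19.6 to 47.0%, an interval that includes the 20.9% of all peaks). They belonged to 12 of the 21 list genes with an EpiSC peak, compared with 1169 of the 5047 nearest genes of all EpiSC peaks. The 21 genes had 41 peaks, the 5047 genes 6261. A gene with more peaks can more easily hold an EpiSC-only one, so the counts of genes are not alike. The other lists had fewer peaks. FGF signalling had 3 of 27 EpiSC-only, WNT signalling 5 of 20, Nodal and TGF-beta signalling 2 of 14, and definitive endoderm 1 of 10. Early neural and anterior ectoderm genes had 3 of 8 (37.5%, 13.7 to 69.4%), naive pluripotency genes 2 of 7 and primitive streak genes 0 of 7. The lists overlap, and a gene in more than 1 list is counted in each. Among genes with an EpiSC-only peak, Otx1 is in the primed epiblast and early neural lists. Etv4 is in the primed epiblast and FGF lists.

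**Figure D4:**
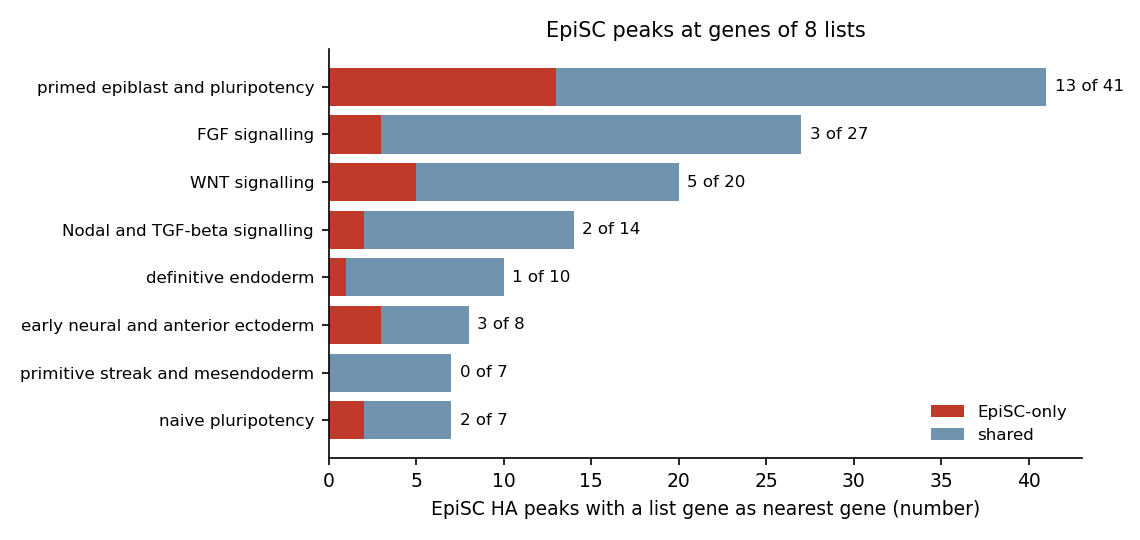
Number of EpiSC HA peaks whose nearest gene belongs to each of 8 gene lists, split into EpiSC-only and shared peaks. Primed epiblast and pluripotency genes have 13 EpiSC-only peaks of 41, and primitive streak genes 0 of 7.

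At Pou5f1, which encodes OCT4, the only EpiSC peak was EpiSC-only. It was 496 bp wide (chromosome 17, 35504773 to 35505268), among the 26 widest, and its centre lay 1011 bp before the gene start (gene 35506032 to 35510777, plus strand), inside the non-coding RNA gene Gm32362. A DE peak lay 1684 bp away, and 3 DE peaks had Pou5f1 as nearest gene. Nanog, a homeodomain factor of the pluripotency network, had an EpiSC-only peak of 111 bp centred 275 bp before its start (chromosome 6, 122707159 to 122707269) beside 1 shared peak and 2 DE peaks. Utf1, a chromatin-associated factor of pluripotent cells, had a peak of 147 bp centred 578 bp past its 3′ end. No shared or DE peak had Utf1 as nearest gene, although a DE peak given to another gene lay 4062 bp from this one.

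Dnmt3b, the de novo DNA methyltransferase of the epiblast, had 1 EpiSC peak, 182 bp wide and centred 6175 bp before its start, which was EpiSC-only. No DE peak had Dnmt3b as nearest gene, although one assigned to another gene lay 3482 bp from the EpiSC peak. At Lin28a, an RNA-binding repressor of let-7 processing, the peak of 206 bp printed above had a DE peak 194 bp away. At L1td1, an RNA-binding protein gene of pluripotent cells, a peak of 95 bp lay in the gene, 1270 bp past its start, beside 1 shared peak. Pim2, a serine/threonine kinase gene on the X chromosome, had 2 EpiSC-only peaks of 284 and 368 bp, centred 9699 and 8197 bp before its start, and 1 shared peak. The distances to the next DE peak were 9363 and 7819 bp there.

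The factors of the same list with a developmental role were Pou3f1 (OCT6), Sox11, Otx1 and Etv4. Otx1, the paralogue of Otx2, had a single EpiSC peak, 139 bp wide and inside the gene, that was EpiSC-only and 10008 bp from a DE peak, while 4 DE peaks lay elsewhere at the gene. Etv4, an ETS factor gene downstream of FGF, had 1 EpiSC-only peak of 273 bp inside the gene and 1 shared peak. Pou3f1 and Sox11 each had 1 EpiSC-only and 1 shared peak, with a DE peak 1233 and 1263 bp from the EpiSC-only one. At Trim28, a co-repressor gene, the one EpiSC peak, 87 bp wide, lay 3851 bp before the start.

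Signalling genes contributed 1 or 2 EpiSC-only peaks each. The ligand gene Wnt11 was the nearest gene of 2 EpiSC-only peaks, of 84 and 106 bp, with DE peaks 359 and 699 bp away. The peak of 84 bp was centred 19498 bp before the start of Wnt11. It lay within 1 kb of the tRNA genes n-TPtgg8 and n-TPagg7, so it is also counted near tRNA genes above. Wnt8a, another ligand gene, had 1 beside 2 shared ones. The receptor genes Lgr5 and Lrp5 had 1 each, of 296 bp inside Lgr5 and of 123 bp at 1441 bp outside Lrp5. Lefty1, an inhibitor of Nodal, had an EpiSC-only peak of 147 bp that was 816 bp from a DE peak. Skil, which encodes a repressor of SMAD signalling, had one of 104 bp, 60099 bp from any DE peak. In the FGF group, the ligand gene Fgf15 had one of 126 bp, 9859 bp from a DE peak given to another gene. The adaptor gene Frs2 had one of 89 bp with 6 DE peaks elsewhere.

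For the naive factors Klf2 and Dppa5a the only EpiSC peak was EpiSC-only, 110 bp wide at 2844 bp before the start of Klf2 and 108 bp wide at 2095 bp outside Dppa5a. Of the neural genes, the homeobox gene Meis2 had one of 155 bp inside the gene and Nes, which encodes nestin, one of 189 bp. Trh, the thyrotropin-releasing hormone gene and the only member of the endoderm list here, had one of 199 bp, 976 bp from a DE peak. Across the 8 lists, 5 of the 25 genes with an EpiSC-only peak were the nearest gene of neither a shared nor a DE peak: Dnmt3b, Utf1, Dppa5a, Fgf15 and Skil. The same held for 341 of the 1169 genes with an EpiSC-only peak in all.

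By the nearest gene of the deposited table, the 1306 peaks belonged to 1169 genes, and 1057 of these had 1 peak. Anks1b, a long gene of a synaptic scaffold protein, had 4, the highest number, all inside the gene, with 1 shared and 11 DE peaks. A further 23 genes had 3. Of the 1169, 839 had no shared peak, out of 5047 nearest genes of all EpiSC peaks. With 1 EpiSC-only peak at most of them, this count largely restates the selection. Of the 839, 498 had a DE peak at another place and 341 had none. Genes with at least 2 EpiSC-only peaks and no shared peak numbered 78, and 35 of them had no DE peak.

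Phc1, which encodes a subunit of Polycomb repressive complex 1, was among the latter. Its 3 peaks of 310, 104 and 308 bp followed each other on chromosome 6 from 122340598 to 122342438, and each was more than 31 kb from a DE peak. Abt1, on chromosome 13, was the nearest gene of 3 peaks, of which 2 lay in tRNA genes and the third within 1 kb of one. The 3 peaks given to the pseudogene Olfr1421-ps1 on chromosome 19 were likewise all within 1 kb of tRNA genes. A830018L16Rik and Gm25480 had 3 each and no shared or DE peak. Gm28228 and Gm37997 had 3 each and no shared peak, with 2 and 5 DE peaks. C77080 and Gm25464 had 3 beside 2 and 1 shared ones.

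The authors' deposited table marks some nearest genes as down or up in a contrast that the sources used here do not state. EpiSC-only peaks carried the down mark in 20 cases (1.53%) and shared peaks in 168 (3.39%), a difference of -1.86 points (-2.62 to -0.913). The up mark was on 24 (1.84%) and 134 (2.70%), and the interval of that difference included 0 (-0.867 points, -1.64 to 0.109). A mark belongs to the gene, so peaks of the same gene share it. Counted per gene, 18 of 1169 genes with an EpiSC-only peak (1.54%) and 109 of 4208 with a shared peak (2.59%) were marked down. The differences per gene were -1.05 points for down and -0.59 for up, for which no interval was computed. Of the marked genes, 4 had 2 EpiSC-only peaks: Ror2, a receptor of non-canonical WNT signalling, and Peg3, an imprinted zinc-finger gene, were marked down, and Nrip1, a nuclear receptor co-repressor, and Cachd1 were marked up. Both peaks at Ror2 lay inside the gene, 22042 and 22382 bp from a DE peak, and 7 DE peaks were elsewhere at that gene. Both peaks at Peg3 were close to DE peaks, at 348 and 104 bp. With 1 peak each, Agpat5, Cacnb4 and Cadm1 were marked down and Arl4a, Bicc1 and C530008M17Rik up, and among these 6 only Cacnb4 had no DE peak.

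How far the peaks were from a DE peak is set in part by the rule and is given as a description. The median distance was 9392 bp (quartiles 2559 and 25664 bp). Within 100 bp lay 27 peaks, within 1 kb 197 (15.1%) and within 10 kb 670 (51.3%), while 171 were 50 kb or more away and 68 were 100 kb or more away. The 197 with a DE peak within 1 kb had a median width of 109 bp, the other 1109 one of 127 bp. Just inside the rule were a peak at Jak2 that abutted a DE peak with a gap of 0 bp, peaks at Nat10, Sirpa and Gtf2ird2 with gaps of 5 bp, and one at Stk38 with a gap of 7 bp. Just outside were shared peaks with overlaps of 1 bp at Spry2, 3 bp at Gm23573, 7 bp at Gm13534, 8 bp at Dopey2 and 9 bp at Rncr4.

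The peak farthest from any DE peak was on chromosome X with Gm6954 as nearest gene, 430587 bp from a DE peak, followed by those at Mir6373, Gm26022, Gm24921 and Gm22553 with 417217, 411133, 386459 and 368039 bp. They were 80 to 195 bp wide. Another EpiSC-only peak lay within 10 kb of 204 peaks (15.6%), and a shared EpiSC peak within 10 kb of 296 (22.7%).

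**Figure D5:**
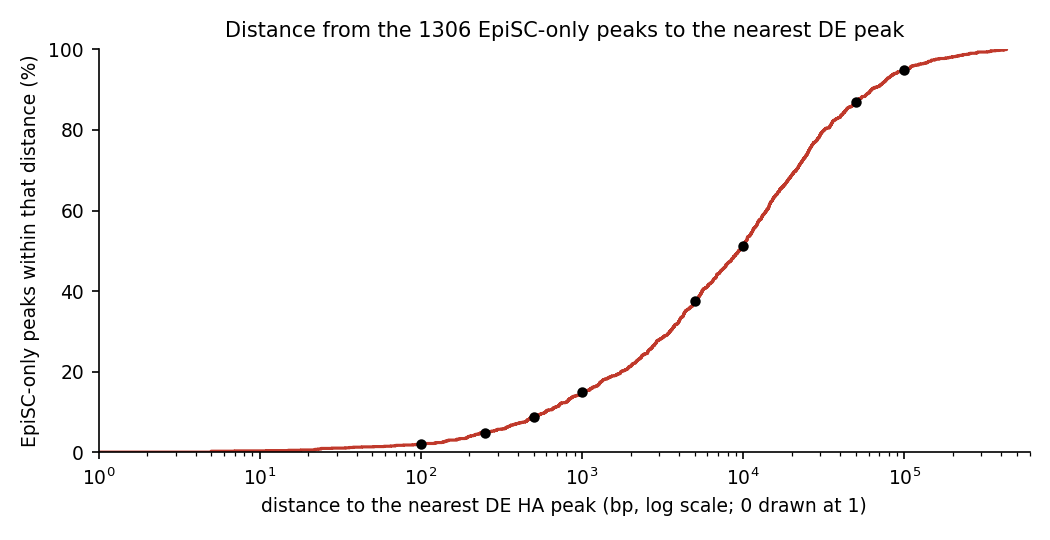
Cumulative percentage of the 1306 EpiSC-only peaks (y axis) by distance to the nearest DE HA peak (x axis, bp on a log scale, with 0 drawn at 1); black points mark 100 bp to 100 kb. The curve passes 15.1% at 1 kb and 51.3% at 10 kb.

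Promoter sequence was compared for the few peaks at gene starts. A RefSeq promoter window was overlapped by 65 EpiSC-only peaks (4.98%) and 1615 shared peaks (32.6%). This gave 73 windows met only by EpiSC-only peaks, 2004 windows met by shared peaks and 32851 windows in all. The 73 windows had a median GC content of 54.3%, between the 60% of windows with shared peaks and the 52.7% of all windows, and a median of 11 CpG dinucleotides against 19 and 7. The KLF/SP core GGGCGG was in 43.8% of the 73, 73.1% of the 2004 (difference -29.3 points, -40.2 to -17.7) and 35.7% of all windows, on either strand. CCAAT was in 43.8%, 65.1% (difference -21.2, -32.2 to -9.63) and 37.4%. For both the 73 windows were nearer to windows at large than to those with shared peaks.

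The OTX2-type core TAATCC was in 4 of the 73 windows (5.48%), 9.58% of the 2004 and 7.06% of all, and the interval of the difference included 0 (-7.70 to 3.77 points). The octamer ATGCAAAT was also in 4 (5.48%), against 2.79% and 1.74%, again with an interval that included 0 (-0.742 to 10.5). The GATA core AGATAA was in 15.1%, 5.54% (difference 9.53 points, 3.00 to 19.5) and 11.2%, and the SOX-type letters ACAAAGG in 9.59%, 4.09% (5.50 points, 0.538 to 14.4) and 5.88%. With GGGCGG and CCAAT these were the 4 of 22 motifs whose interval did not include 0. All were searched on both strands, some overlap each other (TTTGCAT lies within the octamer's reverse complement), and the intervals were not adjusted for their number. In the parts of windows that the peaks themselves covered, 63 peaks could be read, of which 15 held CCAAT, 11 GGGCGG, 4 the octamer and 3 TAATCC. A match is a description of the sequence and not a sign of binding.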

How the data were processed

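CUT&RUN peak lists for HA-tagged OTX2 were used. Per the labels, 1 merged list and 1 gene table per state stand for both HA replicates, merged over 50 bp per the file names, and 3 IgG lists and 1 parental HA list were deposited. The values used are positions, with no score. Per the submitters' processing notes, the tools were Bowtie2 2.3.5.1, SAMtools 1.14, Picard 2.26.10, bedtools 2.30 and MACS2 2.2.6, on mm10; their settings are not given in the sources used here. IgG replicate 2 is contained in replicate 3 (149 of 149 intervals), so they are not independent. The label of 1 EpiSC HA sample also names the DE list, which was read as a slip.

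Overlaps, distances and shares were computed in Python 3.11.15 with pandas 2.3.3, and the interval code was tested on simulated data. Genes came from RefSeq GRCm38.p6, the assembly of mm10, and the strand from its promoter table. Wilson and Newcombe 95% intervals cover counting error only. Depth per sample was unknown. The planned motif, base composition and repeat comparisons of whole peaks need a genome and were not run; promoter windows were used instead.

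Named were the 5 peaks nearest to and the 5 farthest from a DE peak, the 5 smallest overlaps, the 10 widest, the first 5 in tRNA genes, all list genes, and up to 10 genes each with the most peaks, with 2 or more and no shared peak, or with a mark. Genes of 3′ ends, histone genes and sequences were chosen after their values were seen. The peaks and gene lists were chosen with earlier results of these data known.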

Additional observations from a re-analysis of the deposited data

How the results depend on the processing

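No paired analysis was possible because each state has 1 list pooled over its HA replicates, which also means that none of them could be left out. The motif alternatives were not run, since no genome sequence was used. Over 22 settings, 74 alternative values were computed: 61 stayed within their limits, 12 moved and 1 reversed. The share of EpiSC peaks without a DE peak, 20.9% as reported, was 25.6% when at least 50% of a peak had to be covered, 19.04% and 17.7% when a DE peak within 500 bp or 1 kb counted, and 18.6% for peaks of at least 100 bp. Against the equally long list of widest DE peaks, 4322 peaks (69.0%) had no DE peak. The difference at gene ends was -17.3 points within 5 kb and -29.3 with protein-coding genes only. Counting genes within 1 kb gave -21.9 points for protein-coding and 2.81 for tRNA genes and turned pseudogenes from -0.129 to 0.240. Other limits for wide peaks past 3′ ends gave 7.18 points (300 bp) and 63.1 (500 bp). Leaving out each IgG replicate gave 1306 to 1310 EpiSC-only peaks. The difference past snoRNA host 3′ ends was 1.47 to 1.70 points over its alternatives. The alternatives on 3′ ends, wide peaks and marks by width were chosen after seeing the data. Limits: lists without height or depth, counts of 2 to 43 EpiSC-only peaks in the small classes, and gene classes that lack chromosome 18 where strand is needed.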
